A study of Mus musculus with 8 samples.

Results

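Synaptic adhesion molecules and the postsynaptic scaffolds other than the Shank family were followed as a set of 36 genes. The genes were chosen by name, with earlier results of these data known. All 36 were found among the 24420 genes common to the count tables, 35 by symbol and Epb41l1 by an older symbol, and all 36 were among the 14809 genes that passed the filter on low counts. RNA was taken from slices of prefrontal cortex of male mice, with 3 wild-type libraries (littermates, for which the labels name no treatment), 3 libraries of Shank3-deficient mice given saline and 2 of Shank3-deficient mice given romidepsin. The mutants, which make up both treated groups, are heterozygous for a Shank3 allele whose C-terminal part is deleted, so 1 intact copy remains and reads from the rest of the deleted copy are still counted. Mice of all 3 groups were 5 to 6 weeks old. Romidepsin, an inhibitor of class I histone deacetylases, was injected intraperitoneally on 3 days, with 1 dose of 0.25 mg/kg a day. Saline was given on the same schedule of 3 daily doses. In both treated groups the cortex was taken 1 day after the last dose. No wild-type group given romidepsin was analysed here, and saline injection and genotype cannot be told apart in saline against wild type.

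At an excitatory synapse, neuroligins, LRRTMs and related leucine-rich repeat proteins of the receiving cell bind neurexins of the sending cell, and cerebellins are secreted proteins that bridge neurexins to delta-type glutamate receptors. Below the membrane, MAGUK proteins such as PSD-95 hold AMPA receptors through their auxiliary subunits, the TARPs, while CaMKII, GRIP, PICK1, IQSEC and TANC proteins set how receptors and scaffolds are anchored, phosphorylated and recycled. Shank3 lies deeper in the same density and reaches the MAGUKs through linker proteins, and several of the genes described here are, like SHANK3, linked to autism or intellectual disability in people.

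Tanc1, a large ankyrin and TPR repeat scaffold that binds PSD-95, gave the smallest p of the 36 genes in all 3 comparisons, and its close relative Tanc2 stayed level. The RefSeq promoter windows of both genes on GRCm38.p6, from 250 bases before to 50 bases after an annotated start, are therefore printed here, with capitals marking the GC box (GGGCGG on either strand, overlapping matches counted), a motif of Sp-family factors. Tanc1 has 2 annotated windows on the plus strand of chromosome 2 (chr2:59611792-59612091 and chr2:59646519-59646818), and Tanc2 has 1 on the plus strand of chromosome 11 (chr11:105589736-105590035).
Tanc1 first start: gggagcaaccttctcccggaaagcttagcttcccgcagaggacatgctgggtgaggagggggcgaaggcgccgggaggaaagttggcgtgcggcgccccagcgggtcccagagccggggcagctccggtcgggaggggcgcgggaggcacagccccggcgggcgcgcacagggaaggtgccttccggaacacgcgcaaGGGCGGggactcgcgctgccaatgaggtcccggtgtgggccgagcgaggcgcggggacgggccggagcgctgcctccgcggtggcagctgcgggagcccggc
Tanc1 second start: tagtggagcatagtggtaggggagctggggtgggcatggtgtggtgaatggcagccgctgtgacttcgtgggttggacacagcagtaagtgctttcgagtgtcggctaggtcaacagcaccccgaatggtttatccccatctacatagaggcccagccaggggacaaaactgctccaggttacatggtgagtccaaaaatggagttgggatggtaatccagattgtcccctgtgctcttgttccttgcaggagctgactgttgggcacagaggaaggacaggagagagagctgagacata
Tanc2 start: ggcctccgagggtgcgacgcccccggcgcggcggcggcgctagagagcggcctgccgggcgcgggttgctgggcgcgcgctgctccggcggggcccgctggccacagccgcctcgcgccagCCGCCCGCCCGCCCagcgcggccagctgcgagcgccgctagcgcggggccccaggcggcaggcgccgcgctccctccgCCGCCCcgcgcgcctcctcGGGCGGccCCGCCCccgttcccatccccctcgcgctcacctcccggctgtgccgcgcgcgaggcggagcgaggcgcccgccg
The first Tanc1 window has a GC content of 75%, with 36 CpG dinucleotides and 1 GC box. The second has a GC content of 54.0%, with 5 CpG and 0 GC boxes, and the Tanc2 window has 85.3%, 57 CpG and 6 GC boxes. Counts per gene do not say which Tanc1 start was in use.

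RefSeq held 48 such windows for 27 of the 36 genes. Their median GC content was 56.0%, against 52.7% over all 32851 windows of 27025 genes. A GC box lay in 21 of the 48 (43.8%, against 35.7% of all windows), a TATA box (TATAAA, either strand) in 4 (8.33%, against 13.6%), and the full cAMP response element (TGACGTCA) in 0 of 48, against 1.79% of all. The genes are long: the median span was 99.2 kb, against 24.2 kb over all tested genes with an annotation. A span over 200 kb was found for 12 of the 36 (33.3%, against 6.33% of all), from Dlg1 up to Cntnap2 at 2241 kb, while Cbln1 spans 3.74 kb. In the RefSeq annotation of that build several neighbour each other. Dlg4 lies 179 kb from Nlgn2 on chromosome 11, and Dlg3 lies 481 kb from Nlgn3 on chromosome X. Lrrtm1, Lrrtm2 and Lrrtm3 each lie inside an alpha-catenin gene on the opposite strand (Ctnna2, Ctnna1 and Ctnna3).

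Depth was 7783538 to 15156318 counts per library, of which the 36 genes took 1.18% to 1.35%. The libraries wild-type 3 and saline 2 stood apart from the rest on the first principal component of all genes (24.2 and -35.1, with the other 6 between -1.26 and 9.96). Of the 36 genes, 14 had their lowest level in wild-type 3 and 10 in saline 2, while 9 had their highest in saline 2 and 7 in wild-type 3. Shank3 itself stood at 299, 308 and 348 CPM (counts scaled to library size after TMM) in wild type, at 316, 252 and 301 in the saline group and at 315 and 313 under romidepsin, and these whole-gene values do not check the genotype. The labels call the cell type neurons, but 9 astrocyte markers summed to 5683 to 7427 CPM and 9 oligodendrocyte markers to 2990 to 5464 CPM, beside 5563 to 7119 CPM for 6 neuronal markers. The samples therefore held glia too, and in such tissue fewer cells of a type and less RNA per cell cannot be told apart.

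In wild-type cortex the 36 genes covered almost 3 decades of abundance. Camk2a, the alpha subunit of the kinase that makes up much of the postsynaptic density, was highest per length at 643 RPKM (CPM per kilobase of exon, mean of 3). Agap2, an Arf GTPase-activating protein also known as PIKE, followed at 242 RPKM, then Camk2b, the beta subunit that ties the kinase to actin, at 80.0, Dlg4, which encodes PSD-95, at 67.9 and Epb41l1, a cytoskeletal adaptor of the AMPA receptor subunit GluA1, at 63.7. Il1rapl1, an interleukin-1 receptor-like organiser of synapses, was lowest at 0.704, below Tanc1 at 1.62 and Cbln1 at 2.43. The median of the 36 was 16.9 RPKM, against 5.39 over all tested genes.

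**Figure D1:**
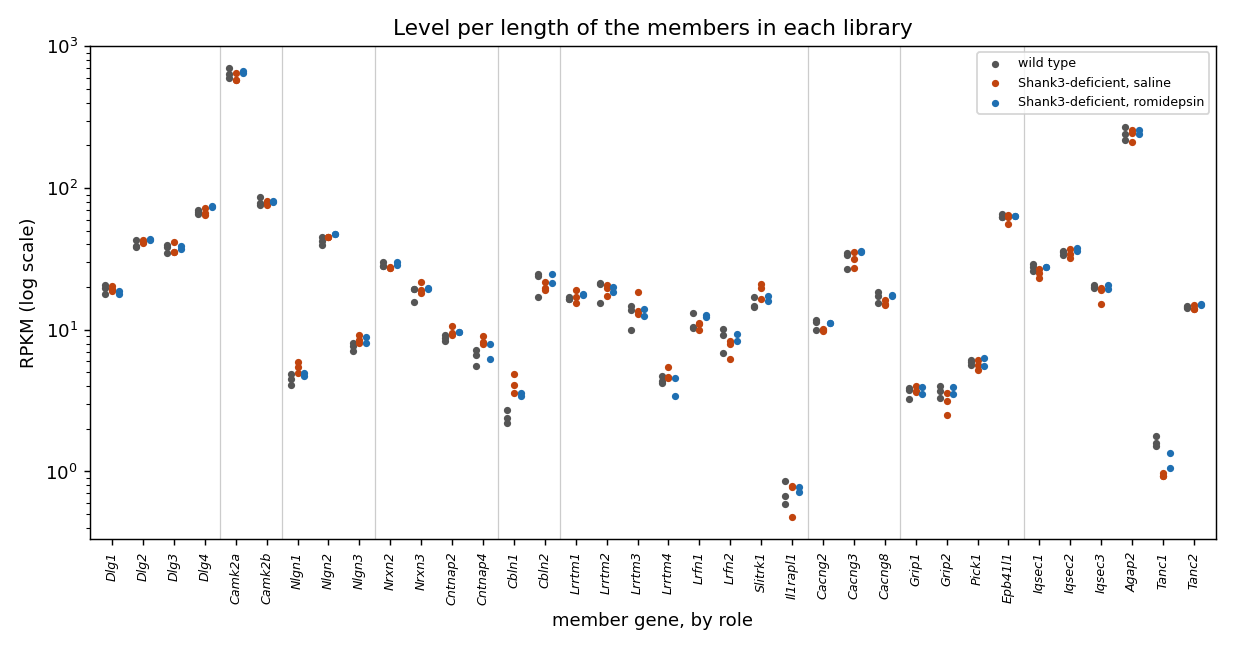
Level per length (RPKM, log scale) of the 36 genes in each library, in order of role and separated by grey lines, with wild type in grey, saline in orange and romidepsin in blue. Camk2a and Agap2 stand at the top and Il1rapl1 at the bottom in every library, and the colours lie close together for most genes.

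The spread between libraries was small. The highest library was under 1.5 times the lowest for 28 of the 36 genes, and over 2 times only for Cbln1 (2.24 times). The biological coefficient of variation, the spread between libraries beyond counting noise, had a median of 7.86% over the 36 genes and 9.44% over all tested genes.

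None of the 36 genes passed the edgeR quasi-likelihood test at an adjusted p of 0.05 in saline against wild type, the comparison that addresses the Shank3 deletion. Over all 14809 genes 1 passed, a background of 0.00675%. At an unadjusted p under 0.05 there were 6 members, 4 higher and 2 lower, that is 16.7% where all genes gave 8.39%. Saline and wild-type libraries did not overlap for 5 of the 36 (13.9%, 3 higher and 2 lower), close to the 12.6% of all genes. Leaving out 1 of the 6 libraries gave 13.9% (without saline replicate 2, all genes 19.8%) to 33.3% (without saline replicate 3, all genes 23.4%, or wild-type replicate 3, all genes 24.4%). As a set, 14 were higher and 22 lower (38.9% higher, against 51.3% of all genes). The median log2 fold change was -0.01 where all genes had 0.0047. The 95% interval lay within 1.5-fold either way for 33 of the 36 (91.7%, against 71.0% of all genes). It lay within 1.25-fold for 21 (58.3%, against 37.4% of all genes). DESeq2 called 1 member, Tanc1 (adjusted p = 0.00155), where it called 0.209% of all genes, and limma-voom called 0.

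**Figure D2:**
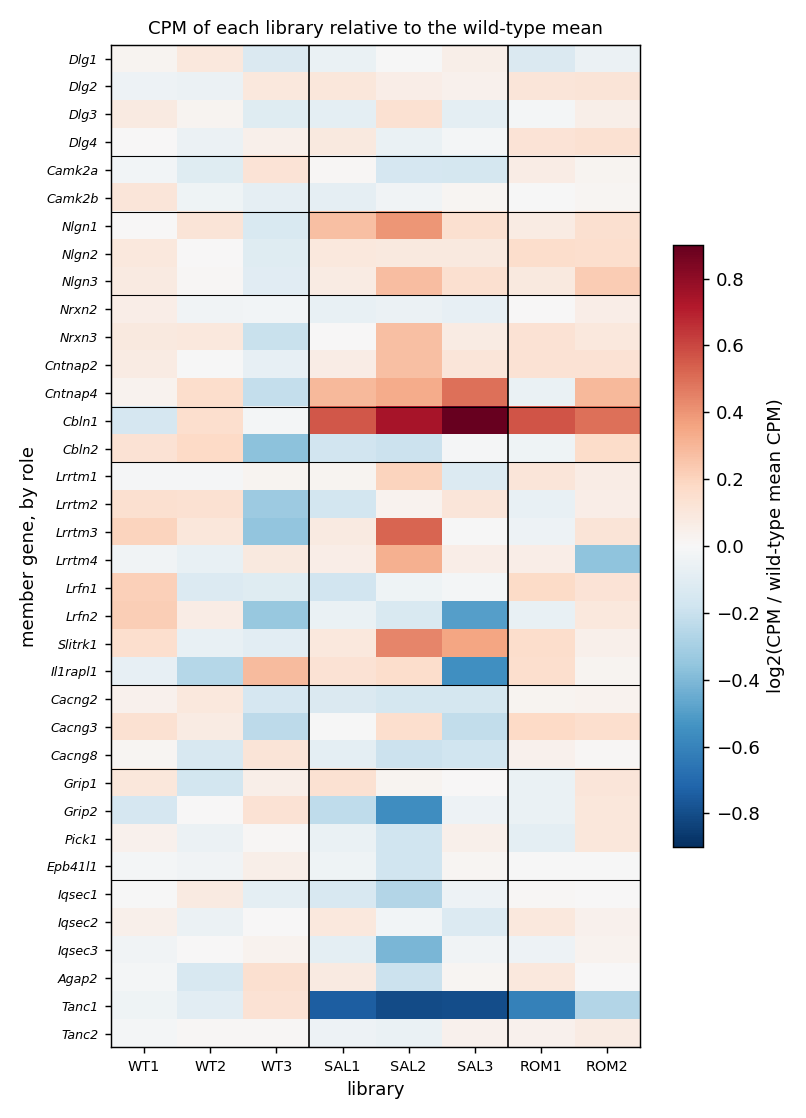
Colour map of log2(CPM / wild-type mean CPM) for the 36 genes (rows, by role) in the 8 libraries (columns). Tanc1 is blue and Cbln1 red in all 3 saline libraries, most other rows are pale, and saline 2 (SAL2) and wild-type 3 (WT3) carry many of the stronger colours.

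Tanc1 (chr2:59611821-59846213 in RefSeq, GRCm38.p6) stood at 23.0, 22.1 and 25.8 CPM in wild type. It stood at 14.2, 13.5 and 13.6 CPM in the saline group and at 15.5 and 19.7 CPM under romidepsin. The 3 saline libraries lay close together and below every wild-type library, and both romidepsin libraries lay between the 2 groups. The saline level was 0.584-fold of wild type (95% interval 0.487 to 0.700; log2 fold change -0.78, SE 0.12), with an adjusted p of 0.0797 in edgeR, above the threshold. Over the 14 alternative settings the log2 fold change ran from -0.83 to -0.71 and the adjusted p from 0.00155 to 0.312, and it passed in 3: DESeq2, no filter on low counts (0.00625) and without wild-type replicate 3 (0.0284). The raw counts behind these values were 273, 293 and 329 in wild type against 216, 129 and 106 under saline.

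Tanc2, with a far higher level, stood at 238, 243 and 242 CPM in wild type, at 233, 231 and 248 in the saline group and at 248 and 254 under romidepsin. The saline level was 0.984-fold of wild type, with an interval of 0.890 to 1.09. Tanc1 made up 9.39% to 10.8% of the reads per length of the pair in wild type, 5.89% to 6.47% in the saline group and 6.64% to 8.11% under romidepsin. The saline shares were below all wild-type shares, and the romidepsin shares above all saline shares. The 20 endothelial and pericyte markers summed to 441, 470 and 556 CPM in wild type, to 489, 354 and 409 under saline and to 532 and 427 under romidepsin. On that list saline 2 and 3 lay below all wild-type libraries and saline 1 inside their range, with 12 of the 20 markers lower on average in the saline group (median log2 fold change -0.15). Their part in the Tanc1 values was not tested.

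The regulators of small GTPases at the synapse, grouped here with the TANC scaffolds, kept near their wild-type levels. Iqsec1, Iqsec2 and Iqsec3 activate Arf6 and related GTPases, which steer receptor recycling. Iqsec1 was at 0.903-fold (interval 0.804 to 1.01), Iqsec2 at 0.991-fold (0.887 to 1.11), Iqsec3 at 0.891-fold (0.778 to 1.02) and Agap2 at 0.980-fold (0.851 to 1.13). With Tanc1 and Tanc2 all 6 of this group were lower on average than wild type and 5 did not reach an unadjusted p under 0.05. One of the 6 turned higher without wild-type replicate 1 or 3, or without saline replicate 2 or 3. The lowest Iqsec3 value, 205 CPM, was that of saline 2, with the other 2 saline libraries at 257 and 268.

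Cbln1 (chr8:87468853-87472592), a cerebellin best known from cerebellar granule cells and present in cortex at low levels, had the second smallest p. It stood at 6.65, 8.21 and 7.29 CPM in wild type, at 10.9, 12.4 and 14.9 in the saline group and at 10.9 and 10.4 under romidepsin. All 5 mutant libraries lay above all 3 wild-type libraries. The saline level was 1.70-fold of wild type (interval 1.34 to 2.16; log2 fold change 0.76, SE 0.16), with an adjusted p of 0.190 in edgeR and 0.0530 in DESeq2, and it passed in 0 of the 14 settings. These are 79 to 109 counts in wild type against 116 to 166 under saline. Cbln2, its more abundant relative in cortex, averaged 63.7 ± 12.6 CPM for wild type and 58.5 ± 4.20 for saline (SD, n = 3 each), at 0.917-fold with an interval of 0.759 to 1.11.

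Markers of tissue next to the cortex were read beside Cbln1. The 14 meningeal markers summed to 123, 119 and 194 CPM in wild type, to 296, 247 and 122 under saline and to 217 and 149 under romidepsin. The 9 olfactory and septal markers summed to 26.9, 25.3 and 58.8 CPM in wild type, to 42.8, 64.4 and 62.7 under saline and to 24.9 and 28.6 under romidepsin. On both lists saline and wild type overlapped. All 14 meningeal markers (median log2 fold change 0.65) and all 8 tested olfactory and septal markers (0.74) had saline averages above wild type. In the same order of libraries Cbln1 stood at 6.65, 8.21 and 7.29 CPM in wild type. It stood at 10.9, 12.4 and 14.9 CPM under saline and at 10.9 and 10.4 CPM under romidepsin. The 8 thalamic and hypothalamic markers summed to 83.8 to 103 CPM in wild type and to 90.4 to 95.8 under saline. The part of these tissues in the Cbln1 values was not tested.

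Among presynaptic partners, Cntnap4, a neurexin-related protein of interneurons, stood at 41.5, 45.2 and 34.9 CPM in wild type and at 49.6, 51.1 and 57.1 in the saline group, with 38.9 and 49.6 under romidepsin. Every saline library was above every wild-type library, and the romidepsin libraries straddled the wild-type maximum. The log2 fold change was 0.37 (SE 0.11; edgeR adjusted p = 0.382). Cntnap2, the related adhesion protein of axons, was at 1.11-fold (interval 0.990 to 1.25), Nrxn3 at 1.09-fold (0.945 to 1.25) and Nrxn2 at 0.956-fold (0.864 to 1.06). Nrxn2 values, 379, 383 and 379 CPM in the saline group, lay just below the lowest wild-type value of 388, a separation of small size with an unadjusted p of 0.366. About 8.01% of the exon bases of Cntnap4 lie opposite an antisense transcript, and whether counting used strand is not given in the sources used here.

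The 3 neuroligins were each higher on average in the saline group, without passing. They stayed higher in all 14 alternative settings, which share most of their libraries and so are not independent checks. Wild-type 3 was the lowest library for each of the 3. The Nlgn2 log2 fold change fell as low as 0.04 among the settings. Nlgn1, the neuroligin of excitatory synapses, stood at 60.7, 65.8 and 55.1 CPM in wild type, at 73.1, 79.7 and 66.9 in the saline group and at 63.6 and 66.8 under romidepsin. The saline libraries all lay above the wild-type ones, by little in the case of saline 3 against wild-type 2. The log2 fold change was 0.28 (SE 0.09; edgeR adjusted p = 0.416), with 9.16% of the Nlgn1 exon bases opposite an antisense transcript. Nlgn3, found at both kinds of synapse, was at 1.12-fold (interval 0.991 to 1.27) and Nlgn2, the neuroligin of inhibitory synapses, at 1.06-fold (0.956 to 1.18). Nlgn2 gave 77.7% of the neuroligin reads per length in wild type against 76.3% under saline. Of the Nlgn3 exon bases, 41.2% are shared with another gene model on the same strand, so its level is uncertain.

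The leucine-rich repeat organisers and Il1rapl1 split evenly, 4 higher and 4 lower, and none was separated between saline and wild type. Slitrk1, which binds presynaptic receptor phosphatases, stood at 91.6, 78.9 and 77.1 CPM in wild type and at 88.1, 112 and 105 in the saline group, with 1 saline library inside the wild-type range (log2 fold change 0.30, SE 0.10; edgeR adjusted p = 0.417). Lrrtm1, Lrrtm2, Lrrtm3 and Lrrtm4, which bind neurexins, were at 1.03-, 0.996-, 1.16- and 1.11-fold. Lrfn1 and Lrfn2, which bind PSD-95, were at 0.948- and 0.868-fold. Il1rapl1 stood at 6.23, 5.50 and 8.00 CPM in wild type, at 7.21, 7.33 and 4.49 in the saline group and at 7.29 and 6.69 under romidepsin. These groups overlapped, and with 35 to 110 counts a library the Il1rapl1 interval of 0.714 to 1.35 was the widest among the 8.

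The core of the density was level. The MAGUK genes Dlg1 (SAP97), Dlg2 (PSD-93), Dlg3 (SAP102) and Dlg4 lay between 0.993- and 1.05-fold of wild type, with every interval within 1.25-fold. Dlg4 gave 41.1% ± 1.1 of the MAGUK reads per length in wild type against 40.8% ± 1.94 under saline (SD, n = 3). Camk2a stood at 4732, 4451 and 5227 CPM in wild type, at 4830, 4322 and 4307 in the saline group and at 5020 and 4885 under romidepsin. The saline and wild-type values of Camk2a overlapped, at 0.934-fold (interval 0.820 to 1.06), and Camk2b was at 0.980-fold (0.875 to 1.10). The ratio of Camk2a to Camk2b reads was 6.01 to 7.56 in wild type against 5.82 to 6.99 under saline.

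AMPA receptor partners showed no member past the threshold either. The TARP genes Cacng2 (stargazin), Cacng3 and Cacng8 were at 0.903-, 0.990- and 0.903-fold of wild type, with all 3 intervals including 1. Grip2, a PDZ scaffold of GluA2, stood at 31.0, 34.5 and 37.7 CPM in wild type, at 29.4, 23.4 and 33.3 in the saline group and at 33.0 and 36.9 under romidepsin. Its groups overlapped, and the lowest value was that of saline 2. The log2 fold change was -0.26 (SE 0.12; unadjusted p = 0.04999, edgeR adjusted p = 0.595). Its relative Grip1 was at 1.04-fold, Pick1, which binds GluA2 through the same tail, at 0.957-fold, and Epb41l1 at 0.957-fold. Of the Pick1 exon bases 18.6% are shared with another gene model on the same strand.

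**Figure D3:**
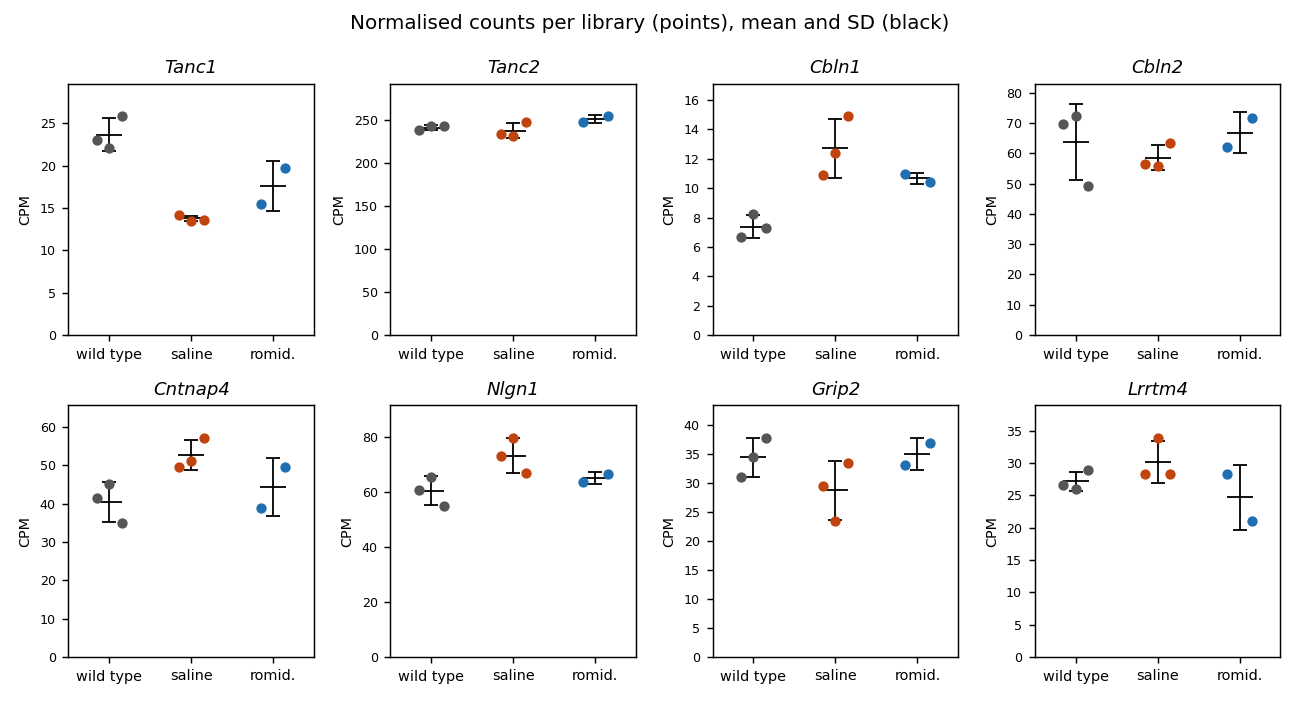
CPM of 8 genes in each library (points), with the group mean and SD in black, all axes from 0. Tanc1 is lower in the 3 saline libraries than in wild type and Tanc2 is level; Cbln1, Cntnap4 and Nlgn1 are higher in the saline group, and Grip2 and Lrrtm4 overlap there.

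Romidepsin against saline, which addresses the drug in the mutants, also had 0 of the 36 genes past an adjusted p of 0.05 in edgeR, DESeq2 and limma-voom. Over all genes edgeR called 0 too, a background of 0%. At an unadjusted p under 0.05 there was 1 member, Tanc1, that is 2.78% where all genes gave 3.26%. The libraries of the groups did not overlap for 15 of the 36 (41.7%, with 12 higher and 3 lower under romidepsin), where 20.9% of all genes did so. Leaving out 1 of the 5 libraries gave 52.8% to 61.1% of the 36 genes, where all genes then gave 35.3% to 46.4%. On average 25 were higher and 11 lower (69.4% higher, against 49.0% of all genes). The median log2 fold change was 0.07 where all genes had -0.0029. The intervals lay within 1.5-fold for 32 of the 36 (88.9%, against 68.5% of all genes). These saline libraries are the ones set against wild type above, so the 2 comparisons are not independent.

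Tanc1 was 1.27-fold of saline under romidepsin (interval 1.03 to 1.57; log2 fold change 0.35, SE 0.14, unadjusted p = 0.0272, edgeR adjusted p = 1.00). The log2 fold change was 0.17 without romidepsin replicate 2 and 0.51 without romidepsin replicate 1. Of the 20 endothelial and pericyte markers, 18 were higher and 2 lower on average than in the saline group. Their part in this Tanc1 difference was not tested. The 3 TARP genes had similar fold levels, 1.13-fold for Cacng2, 1.13-fold for Cacng3 and 1.13-fold for Cacng8. Both romidepsin libraries lay above all 3 saline libraries for each TARP. All 3 genes were higher in each of the 14 alternative settings, some of which leave out only a wild-type library. For Cacng2 the saline libraries were at 55.5, 54.5 and 54.4 CPM. Its romidepsin libraries were at 61.8 and 61.9, inside the wild-type range of 54.8 to 64.8. Cacng8 was at 41.4 and 40.5 CPM under romidepsin, also inside its wild-type range of 36.5 to 43.7. Cacng3, at 99.9 and 98.1 CPM, lay above its wild-type range of 74.8 to 96.7. None of the 3 TARPs reached an unadjusted p under 0.05 (smallest 0.0813, Cacng2).

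All 6 genes of the GTPase regulator and TANC group were higher on average than in the saline group, from 1.05-fold (Agap2) to the 1.27-fold of Tanc1. One of the 6 turned lower without saline replicate 2. Iqsec1 stood at 323 and 322 CPM under romidepsin, above saline values of 291, 268 and 312. Tanc2 was at 1.06-fold (interval 0.945 to 1.18), with 248 and 254 CPM just above the highest saline value of 248. Such a gap is far smaller than the interval.

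Of the other members separated upward, Dlg4 was at 1.09-fold (981 and 988 CPM, against at most 958), Camk2a at 1.10-fold, Nrxn2 at 1.07-fold, Nlgn2 at 1.05-fold and Dlg2 at 1.03-fold. Lrfn1 stood at 49.8 and 48.3 CPM, where the saline libraries were at 39.2, 43.1 and 43.7 and the wild-type libraries at 51.2, 40.5 and 40.9. The romidepsin values of Lrfn1 lay above the saline ones and inside the wild-type range (log2 fold change from saline 0.23, SE 0.11; edgeR adjusted p = 1.00). Grip2 was 1.22-fold of saline with an overlap of 1 saline library (log2 fold change 0.29, SE 0.14).

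Lower and separated under romidepsin were Lrrtm4, Cntnap4 and Nlgn1. Lrrtm4, which binds heparan sulfate proteoglycans as well as neurexins, stood at 26.6, 26.0 and 28.8 CPM in wild type, at 28.3, 33.8 and 28.3 in the saline group and at 28.3 and 21.1 under romidepsin. Romidepsin 1 lay only just under the saline values, and romidepsin 2 below every other library. The log2 fold change was -0.29 (SE 0.14; edgeR adjusted p = 1.00), -0.09 without romidepsin replicate 2 and -0.51 without romidepsin replicate 1, and 25.1% of the Lrrtm4 exon bases lie opposite an antisense transcript. Cntnap4 was at 0.843-fold of saline (interval 0.696 to 1.02) and Nlgn1 at 0.889-fold (0.765 to 1.03). Cntnap4 was at 49.6 CPM in both romidepsin 2 and saline 1, so its separation rests on a difference below this rounding, and the highest Nlgn1 value under romidepsin, 66.8 CPM, lay just under the lowest saline value of 66.9. Cbln1 overlapped between the groups, at 0.849-fold (0.651 to 1.11).

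The remaining adhesion genes overlapped between romidepsin and saline. Lrrtm1, Lrrtm2 and Lrrtm3 were at 1.03-, 1.00- and 0.883-fold, Lrfn2 at 1.17-fold, Slitrk1 at 0.873-fold, Il1rapl1 at 1.08-fold and Cbln2 was above saline by a log2 fold change of 0.19. Nlgn3, Nrxn3 and Cntnap2 lay between 0.983- and 0.997-fold. Among scaffolds, Dlg1 and Dlg3 were at 0.943- and 1.02-fold, Camk2b at 1.03-fold, Grip1 at 0.977-fold, Pick1 at 1.05-fold and Epb41l1 at 1.04-fold. Inhibitory neuron markers, 11 genes, summed to 1124 to 1125 CPM under romidepsin and 961 to 1088 CPM in the saline group, with 967 to 1028 CPM in wild type. Olfactory and septal markers summed to 24.9 and 28.6 CPM under romidepsin, against 42.8 to 64.4 in the saline group, with all 8 tested lower. Striatal markers, 11 genes, summed to 339 and 358 CPM against 309 to 318, with 7 higher and 3 lower. Excitatory neuron markers, 7 genes, summed to 3228 and 3276 CPM against 2857 to 3226. The sums of the other marker lists overlapped. The part of these cells and tissues in the romidepsin differences was not tested.

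**Figure D4:**
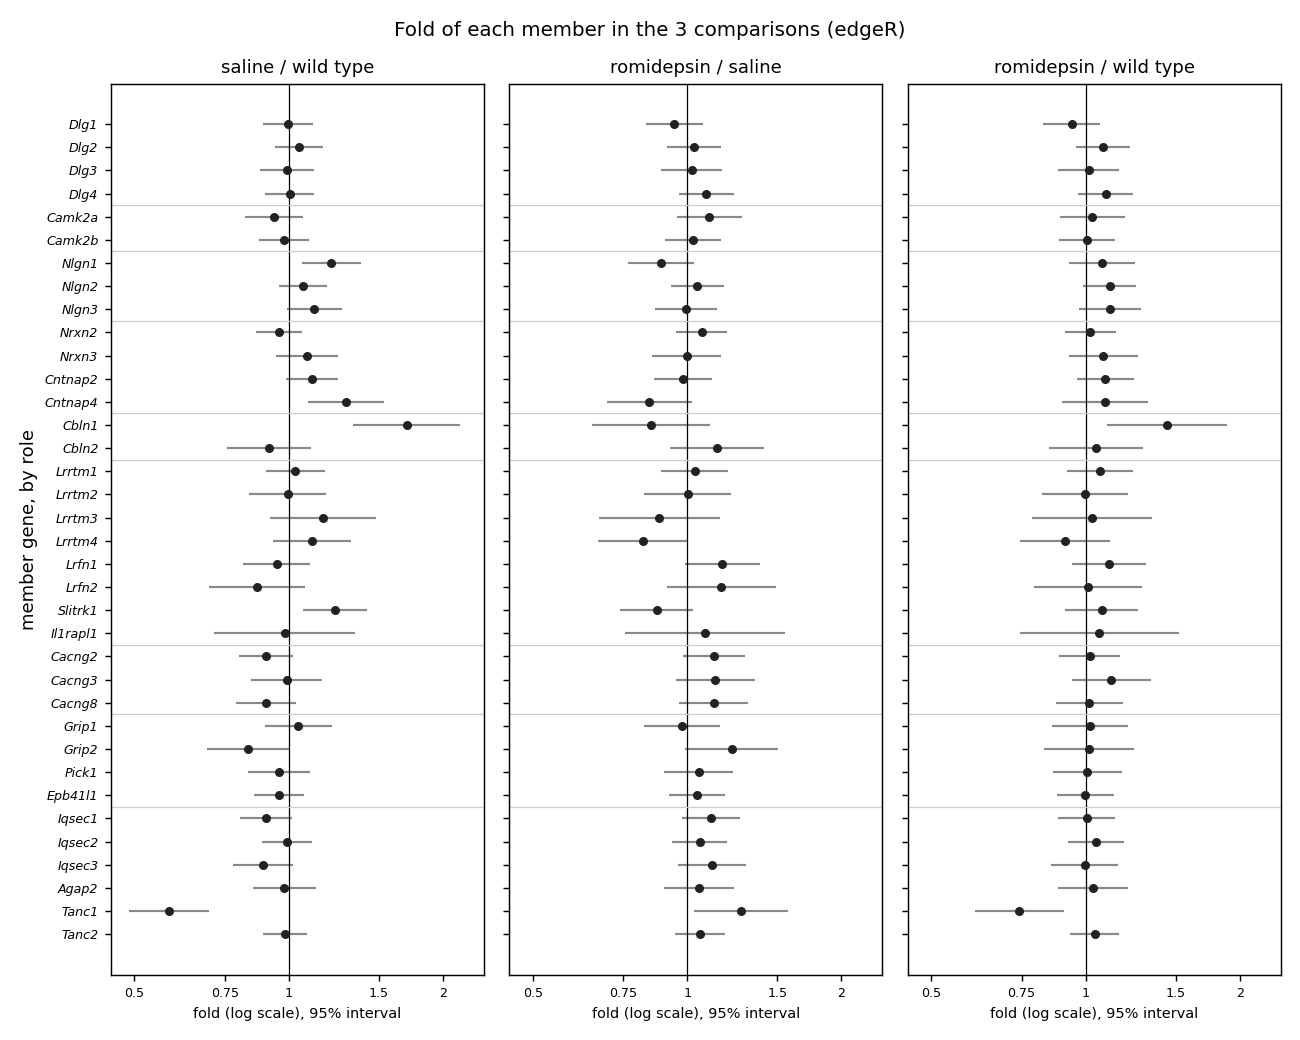
Fold of each of the 36 genes (points) with its 95% interval (lines) from the edgeR fit, on a log axis, in the 3 comparisons. Most intervals include 1; Tanc1 lies to the left and Cbln1 to the right in both comparisons with wild type, and the saline libraries enter the first 2 panels.

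Romidepsin-treated mutants against wild type asked how far the treated mutants stood from normal levels, and again 0 of the 36 passed in edgeR, DESeq2 and limma-voom. The background of edgeR calls was 0.00675%, that is 1 gene. At an unadjusted p under 0.05 there were 2 members, Cbln1 higher and Tanc1 lower, 5.56% where all genes gave 3.24%. Groups did not overlap for 11 of the 36 (30.6%, 10 higher and 1 lower), where 18.4% of all genes were separated. Leaving out 1 of the 5 libraries gave 36.1% to 50% of the 36, where all genes gave 27.1% to 43.1%, and without romidepsin replicate 2 the share of the 36, 41.7%, was that of all genes, 41.6%. On average 30 were higher and 6 lower, and the median log2 fold change was 0.05 where all genes had 4.2e-05.

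Tanc1 stood at 0.743-fold of wild type under romidepsin (interval 0.608 to 0.908; log2 fold change -0.43, SE 0.14, unadjusted p = 0.00678), and the log2 fold change was -0.26 without romidepsin replicate 1 and -0.61 without romidepsin replicate 2. Cbln1 stood at 1.44-fold (interval 1.10 to 1.89; log2 fold change 0.53, SE 0.18, unadjusted p = 0.0114). Both had an edgeR adjusted p of 1.00. Nlgn2 stood at 262, 246 and 228 CPM in wild type, at 262, 260 and 260 under saline and at 274 and 272 under romidepsin. The romidepsin values of Nlgn2 were above all other libraries, at 1.11-fold of wild type (interval 0.989 to 1.26). Nlgn3 stood at 74.8, 71.1 and 65.8 CPM in wild type, at 74.3, 85.5 and 78.0 under saline and at 74.9 and 82.6 under romidepsin. Its lowest romidepsin value only just exceeded the highest wild-type value.

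The further separated genes were Dlg2, Dlg4, Nrxn3, Cntnap2, Lrrtm1, Cacng3 and Tanc2, all between 1.04- and 1.12-fold of wild type. Cntnap4, which differed most among the neurexin relatives between saline and wild type, was at 1.09-fold with an interval of 0.901 to 1.32. Nlgn1 was at 1.08-fold (0.927 to 1.25), Slitrk1 at 1.08-fold (0.913 to 1.27) and Grip2 at 1.02-fold (0.829 to 1.24). These last 4 overlapped with wild type in at least 1 library.

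Other genes of the same machinery were read from 2 lists. Of 66 further adhesion genes tested (68 listed), 0 passed in any comparison in edgeR. At an unadjusted p under 0.05, 19 of them (14 higher, 5 lower; 28.8%) differed between saline and wild type, where all genes gave 8.39%, and 28.8% were separated, where all genes gave 12.6%. The smallest p were those of Adgrl2, a latrophilin that binds teneurins and FLRT proteins, at 112 ± 1.07 and 90.5 ± 7.37 CPM (SD, n = 3 each; log2 fold change -0.30, adjusted p = 0.298), and of Cadm1, a homophilic immunoglobulin adhesion molecule, at 219, 221 and 237 CPM against 280, 294 and 255 (0.30, adjusted p = 0.298). Both were separated. For romidepsin against saline, 9 of the 66 (13.6%) had an unadjusted p under 0.05, where all genes gave 3.26%, with Nectin3 at a log2 fold change of -0.39 and Cntnap1, which builds paranodal junctions of myelinated axons, at 0.30. Oligodendrocyte markers summed to 3323 and 3793 CPM under romidepsin and 2990 to 5464 in the saline group, and their part in the Cntnap1 values was not tested. For romidepsin against wild type 2 of the 66 (3.03%) did so, no more than the 3.24% of all genes: Igsf9b, an adhesion protein of inhibitory synapses (-0.33), and Cntnap3 (0.44).

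Of 49 further scaffold and receptor-anchoring genes, 5 had an unadjusted p under 0.05 between saline and wild type (1 higher, 4 lower), and 0 passed. That is 10.2%, near the 8.39% of all genes. Baiap2, the actin adaptor IRSp53 that binds Shank and PSD-95, averaged 390 ± 23.0 CPM for wild type and 319 ± 4.91 for saline (log2 fold change -0.29, edgeR adjusted p = 0.298). Without wild-type replicate 3 its log2 fold change was -0.34 and it passed (adjusted p = 0.0363). Shisa7, an auxiliary subunit of AMPA and GABA-A receptors, stood at 183, 199 and 213 CPM against 179, 158 and 160 (-0.25, adjusted p = 0.393). Under romidepsin both were above saline, by log2 fold changes of 0.19 and 0.16, at 364 ± 24.2 and 185 ± 6.00 CPM (SD, n = 2). In that comparison 1 of the 49 (2.04%) had an unadjusted p under 0.05, where all genes gave 3.26%, and against wild type 0 of the 49 did, where all genes gave 3.24%. There Apba1 (0.15) and Cask (0.13), linkers of the presynaptic side, had the smallest p.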

How the data were processed

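Poly(A) RNA of 8 samples was sequenced by the submitters, and the deposited values are raw counts per gene and library. Reads were handled with bcl2fastq 2.17.1.14, TopHat2 2.1.1 and HTSeq 0.6.1 on GRCm38 (mm10), per the submitters' processing notes; neither the annotation nor the strand setting is given in the sources used here. Depth is given with the results.

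From these counts, filterByExpr kept 14809 of 24420 genes (60.6%), and edgeR 4.0.16 (TMM scaling, robust quasi-likelihood test, R 4.3.3) was fitted to all 8 libraries without covariates, with Benjamini-Hochberg adjustment over all genes tested at 0.05. Log2 levels used a prior count of 2. A group is called separated where all its libraries lie above or below all those of the other. RPKM and exon overlaps used the gene models of GENCODE M21, and coordinates and spans those of RefSeq (GRCm38.p6); both may differ from the authors' annotation. Alternatives were 14 settings: RLE scaling, no filter, a replicate block, only the 2 groups compared, limma-voom (limma 3.58.1), DESeq2 1.42.0 and leaving out each library. Of the steps, only the edgeR fit was tested on simulated counts, for saline against wild type.

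The 36 genes and all lists were chosen with earlier results of these data known. Per-library values are given for any member that passed, the 4 smallest p in each comparison and the highest and lowest level per length. List genes are named by the smallest p, by library or as group means or log2 fold changes. Other genes given by library (Tanc2, Cacng2, Cacng3, Cacng8, Slitrk1, Iqsec1 and single values elsewhere) were chosen after their values were seen. The labels do not say that the libraries of a group come from separate animals, so p-values measure the spread between these libraries, which may be technical. No 2 libraries agreed within sampling noise (lowest chi-square per degree of freedom 3.14).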

Additional observations from a re-analysis of the deposited data

How the results depend on the processing

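Of 588 comparisons of a named gene's log2 fold change with an alternative setting, 575 kept direction and side of the threshold, 4 passed only there and 9 turned sign. The sign changes were in small values: Lrfn1 in saline against wild type (-0.138 to 0.0401 over the left-out libraries), Nlgn3 in romidepsin against saline (-0.0808 to 0.0619), and, in romidepsin against wild type, Cntnap4 (-0.0590 to 0.291), Lrrtm4 (-0.363 to 0.0587), Grip2 (-0.0604 to 0.103) and Shank3 (-0.0657 to 0.0390). The number of members past the threshold in saline against wild type, 0, became 1 (Tanc1) in DESeq2 and without a filter on low counts, and ran from 0 to 1 over the left-out libraries (1 without wild-type replicate 3). It was 0 in each other setting and comparison. The number of separated members, a check chosen after seeing the data, ran from 5 to 12 in saline against wild type, from 19 to 22 in romidepsin against saline and from 13 to 18 in romidepsin against wild type, and fewer libraries make separation easier.

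With the replicate number as a replicate block, 0 members passed in any comparison, as without it, and Shank3 in romidepsin against wild type was 0.0281. The labels state no pairing. Deviations of same-numbered libraries from their group means had correlations of -0.18 to 0.10 over 7 pairs. With 2 or 3 libraries a group such deviations are tied to each other, and those of the 2 romidepsin libraries mirror each other. The correlations therefore cannot decide whether same-numbered samples share more than a number. Camk2a per length was 966 RPKM with its longest transcript as the length, against 643 RPKM.

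With 2 to 3 libraries a group the intervals lay within 1.25-fold for 21 of the 36 genes in saline against wild type. They did so for 18 in romidepsin against saline. Over all genes the shares were 37.4% and 32.6%. Smaller differences than these intervals allow were not detectable. Il1rapl1 and Cbln1, with 35 to 166 counts a library, were measured least precisely.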
